A study of Mus musculus with 6 samples.

Results

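The transcripts described here are the nuclear-encoded subunits and assembly factors of respiratory complexes III and IV and of ATP synthase, together with cytochrome c. They were chosen by gene name: 51 genes were listed, 36 of them subunits (9 of complex III, 11 of complex IV, 15 of ATP synthase and cytochrome c) and 15 assembly factors, out of 22173 gene symbols in the table. Of the 51, 50 carried the listed symbol, and Atp5f1 was found under its current RefSeq symbol, Atp5pb. Liver RNA came from 6 wild-type mice (Mus musculus) that received an HFHC diet for 16 weeks from 6 weeks of age. In the last 4 weeks, 3 of these mice were given DDK, which the series title calls a limonoid, and 3 were given vehicle. The series asked how DDK acts in metabolic dysfunction-associated steatohepatitis, a fatty liver disease with inflammation, and its title relates DDK to succinate dehydrogenase. Both groups thus shared the diet and the genotype, no group on another diet was analysed here, and strain, sex and dose are not given in the sources used here.

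Complex III passes electrons from ubiquinol to cytochrome c, a small soluble carrier, and complex IV passes them from cytochrome c to oxygen. Both pump protons across the inner mitochondrial membrane, and ATP synthase lets the protons back through its rotating c ring to drive ATP formation in its F1 head. A few core subunits of complexes III and IV carry the redox centres, most of the other nuclear-encoded subunits are small accessory proteins, and assembly factors insert haem, copper or iron-sulfur groups or chaperone parts without staying in the finished enzyme. The subunits encoded in mitochondrial DNA were not analysed here, and enzyme protein, assembly and activity were not measured.

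Expression was given as FPKM, fragment numbers scaled by gene length and by the total of the library, so levels of different genes can be compared per length. Between 26576291 and 36105315 fragments lay behind a library. In the first principal component of all tested genes, the DDK livers scored -36.35 to -23.61, vehicle livers 2 and 3 scored 36.23 and 40.01, and vehicle liver 1 lay between them at 14.13. By the test given below, 10.2% of all tested genes rose and 30.3% fell. Of 18 hepatocyte markers, all of which were detected, 5 rose and 4 fell, with a median log2 fold change of -0.05. Their summed FPKM was 94526 to 99755 in DDK and 61208 to 77632 in vehicle livers. Alb alone made a large part of this sum, with 33702 to 37838 in DDK and 17336 to 21423 in vehicle livers. Of 16 macrophage markers 11 fell and 0 rose, with a summed FPKM of 197 to 495 in DDK and 670.1 to 1093 in vehicle livers, and of 12 stellate cell markers 8 fell and 0 rose (75.5 to 102 against 169 to 224). In whole liver, fewer cells of a type and less RNA per cell cannot be told apart, and the part of cell composition in the results below was not tested.

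Transcripts of most subunits were higher in DDK livers, and most assembly factors did not pass the test. Of the 36 subunits, 25 rose and 2 fell, and of 14 tested assembly factors 2 rose and 3 fell (limma on log2(FPKM + 1), Benjamini-Hochberg adjusted p under 0.05 over all tested genes). Among all 10681 tested genes, 10.2% were called higher and 30.3% lower, and the shares of the assembly factors (2 and 3 of 14) lay near these. The median log2 fold change was 0.60 for the subunits and -0.08 for the assembly factors, beside -0.23 for all tested genes. The subunit genes were shorter, with a median of 768 bp against 2092 bp for the assembly factors. With a correction for gene length the medians were 0.23 and 0.04, beside -0.01 for all tested genes. Quantile normalization gave 0.31 and 0.20, beside 0.00. The subunits together held 1.49% to 1.69% of all fragments in DDK livers and 1.09% to 1.31% in vehicle livers, and the groups did not overlap in this share. All 50 tested members had an FPKM of at least 0.5 in all 6 libraries, and the remaining member, the copper chaperone gene Sco2, whose exons overlap those of Tymp on the same strand, was listed at 0 in every library.

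**Figure D1:**
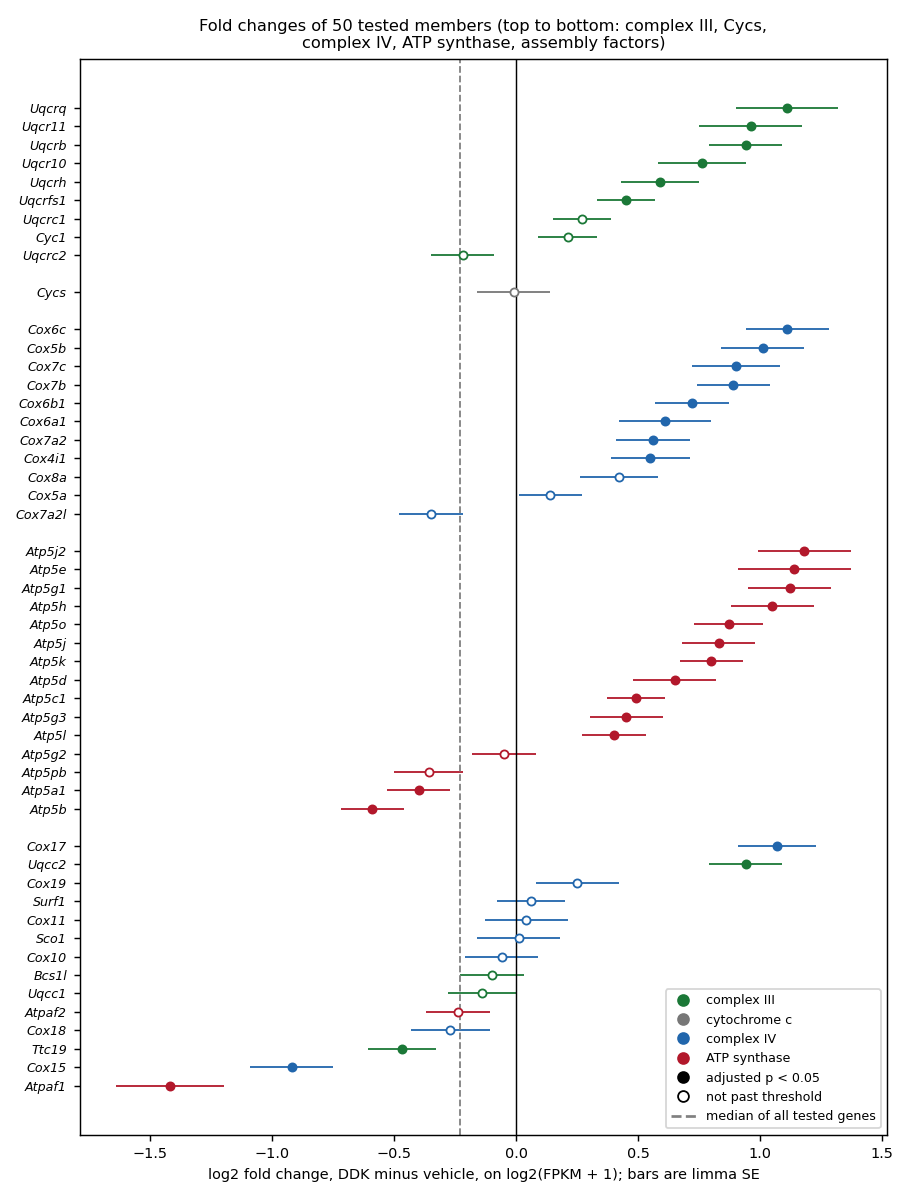
Log2 fold changes (x axis, DDK minus vehicle on the log2(FPKM + 1) scale, bars are limma standard errors) of the 50 tested members (y axis), by complex, with filled points past the threshold and a dashed line at the median of all genes (-0.23). Of the subunits 25 lie to the right as filled points and 2, Atp5a1 and Atp5b, to the left; after length correction 4 of the 25 (Uqcrh, Cox6a1, Atp5k and Atp5l) changed sign.

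The size of these counts moved with the scaling and with the libraries. The subunits called higher and lower numbered 28 and 0 with median-ratio factors, 17 and 3 with quantile normalization, 18 and 5 on the TPM scale, and 14 and 4 with a correction for gene length. Relative to all genes their median stayed positive under these 4 settings (0.24 to 0.91). Over all tested genes, 1963 were called higher and 1650 lower with median-ratio factors, and 1886 and 1743 with quantile normalization. On the TPM scale these numbers were 631 and 4929, and with length correction 1722 and 1844. Leaving out vehicle liver 1 gave 27 higher and 2 lower subunits, and leaving out DDK liver 2 or vehicle liver 3 gave 16 higher and 1 lower in each case. Over all tested genes these fits called 1351, 599 and 639 higher and 4127, 1746 and 1711 lower, in the same order.

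Gene length moved with the fold change, and most subunit genes were short. Across the 36 subunits the Spearman rho of log2 fold change with gene length was -0.60, and across all 10681 tested genes it was -0.25, as a description, since genes of one library set are not independent replicates. Of 180 tested genes under 600 bp, 61.7% were called higher, and of the 13 subunits among them 12 were. Of 226 genes shorter than 1000 bp with a mean FPKM of at least 100, 69.5% were called higher, against 19 of the 21 subunits among them. At 1000 to 2000 bp the share was 18.6% of 2095 genes, and 6 of 12 subunits there were called higher. The part of gene length or RNA quality in the subunit counts was not tested.

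**Figure D2:**
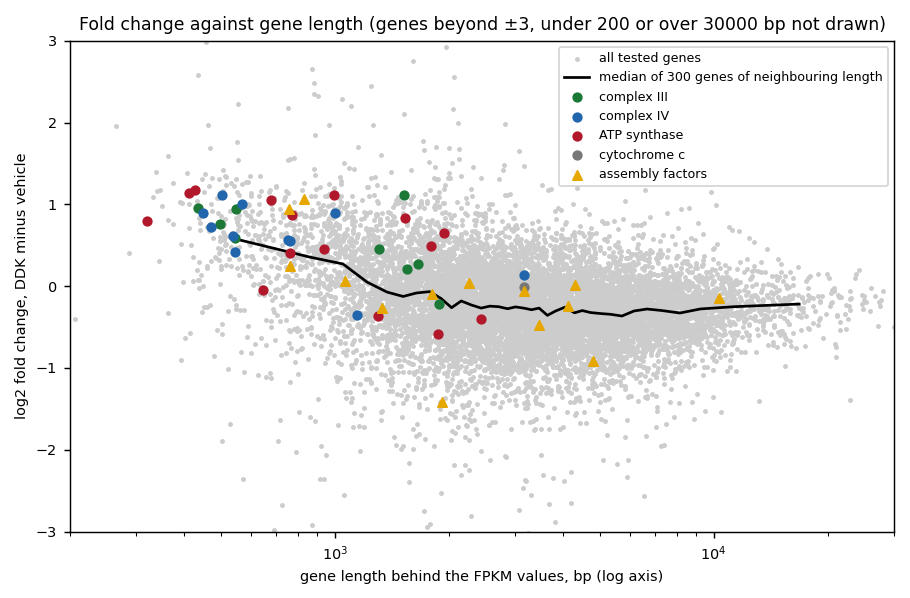
Log2 fold change (y axis, DDK minus vehicle) against the gene length behind the FPKM values (x axis, bp, log scale) for all tested genes (grey), the subunits by complex (circles) and assembly factors (triangles), with a black line for the median of 300 genes of neighbouring length. The line falls from above 0 for genes under 600 bp (median 0.68) to below 0 for genes over 2000 bp, and among the long members Atpaf1 (1925 bp) and Cox15 (4798 bp) lie well under it.

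Because many subunit genes rose together, their promoters were searched for short motifs of factors known to act on respiratory genes. The windows were the 250 bases before each RefSeq start on GRCm38.p6, and exact matches on either strand were counted for GCATGCG (core of the NRF1 motif), CCGGAAG (core of the ETS motif that GABP binds) and AAGATGG (core of the YY1 motif). Of 29 subunit genes with an entry, 6 held the NRF1 core (20.7%, against 3.43% of 27025 genes with a RefSeq promoter window), 8 the ETS core (27.6% against 7.83%) and 1 the YY1 core (3.45% against 5.18%). Of 13 assembly factor genes with an entry, 1 held the NRF1 core, 3 the ETS core and 0 the YY1 core, so the ETS core was not particular to the subunits. All 8 subunits with the ETS core were called higher (median log2 fold change 0.77), as were 13 of the 21 without it (median 0.49), and the difference between these groups was not tested. Of these 8, all but Atp5j (1530 bp) were shorter than 1000 bp. After length correction Uqcrh, Cox6a1, Cox6b1, Atp5l, Uqcr11 and Atp5e were no longer called, and Atp5h and Atp5j kept their calls. With the NRF1 core 4 of 6 were called higher, and without it 17 of 23. A match is a description of letters, and binding of a factor was not measured.

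Shown are the stretches around the match for the 5 genes with the largest rises that held one. They encode the ATP synthase subunits epsilon (Atp5e), d (Atp5h), F6 (Atp5j) and e (Atp5k) and the small complex III subunit Uqcr11. Capitals mark the match, CTTCCGG being the ETS core on the opposite strand and CGCATGCG the NRF1 core read on both strands, and stretches that touch a GENCODE exon are cut to 30 bases.
Atp5e, chr2:174464150-174464249, minus strand: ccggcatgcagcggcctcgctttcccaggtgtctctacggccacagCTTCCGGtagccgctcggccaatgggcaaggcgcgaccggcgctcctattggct
Atp5h, chr11:115419940-115419969, minus strand: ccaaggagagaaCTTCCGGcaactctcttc
Uqcr11, chr10:80406834-80406933, minus strand: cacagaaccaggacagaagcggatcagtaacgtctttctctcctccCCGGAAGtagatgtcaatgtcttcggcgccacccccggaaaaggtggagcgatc
Atp5j, chr16:84835106-84835135, minus strand: caggccagaataCGCATGCGtacagtgcag
Atp5k, chr5:108434431-108434460, minus strand: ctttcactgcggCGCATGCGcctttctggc
The 250 bases before the RefSeq start of Atp5j held all 3 motifs. Its stretch lies inside the gene as placed by GENCODE (84827866 to 84835625), and all 100 bases around the match are on GENCODE exons. Atp5j shares exon bases on the opposite strand with its neighbour Gabpa, which encodes the DNA-binding subunit of GABP. Atp5j rose and Gabpa fell (log2 fold change -0.77 ± 0.23 SE, adjusted p = 0.0238), although reads from the shared bases cannot be assigned to either gene, because the library kit does not mark strand. After length correction Gabpa was no longer called (-0.45, adjusted p = 0.0748).

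In complex III, 6 of 9 subunits rose and none fell, with a median log2 fold change of 0.59 (0.82 relative to all genes). Relative to all genes, this median was 0.27 after length correction. The largest rise was that of Uqcrq (chromosome 11, 53427922 to 53430831 on GRCm38), a small ubiquinone-binding accessory subunit, with an FPKM of 847, 913 and 591 in DDK livers 1 to 3 and 464, 305 and 318 in vehicle livers 1 to 3. DDK liver 3 was the lowest of its group and vehicle liver 1 the highest of its own, yet the groups did not overlap (log2 fold change 1.11 ± 0.21 SE, adjusted p = 0.004). Uqcr11, the most abundant subunit of the complex per length, stood at 898, 928 and 664 in DDK and 581, 350.3 and 369.9 in vehicle livers (0.96 ± 0.21, adjusted p = 0.00784). Uqcrb, another small accessory subunit, had 500.5, 581 and 499.5 in DDK and 321, 265 and 240.5 in vehicle livers. Its rise of 0.94 ± 0.15 passed the test (adjusted p = 0.00201), as did those of Uqcr10 (0.76) and of the hinge protein gene Uqcrh (0.59), which sits beside cytochrome c1. Uqcr10 was at 568, 619 and 491 in DDK and 424, 297 and 284 in vehicle livers. Uqcrh was at 602, 568 and 503 in DDK and 449, 345 and 324 in vehicle livers, and for all 5 of these small subunits every DDK liver stood above every vehicle liver, as for 14.1% of all tested genes.

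The larger subunits of complex III differed less between the groups. Uqcrfs1, the Rieske iron-sulfur protein that takes electrons from ubiquinol, rose by 0.45 ± 0.12 on the log2 scale, from 226 ± 14.7 to 308 ± 5.14 FPKM (SD, n = 3 per group, limma adjusted p = 0.0163). Cyc1, the haem-bearing cytochrome c1, stood at 195, 192 and 189.7 in DDK and 177, 157 and 165 in vehicle livers, and did not pass (0.21 ± 0.12, adjusted p = 0.175). The core protein gene Uqcrc1 stood at 0.27 (adjusted p = 0.0879), and both it and Cyc1 passed as higher after median-ratio scaling (0.0218 and 0.0308). Its partner Uqcrc2, the least abundant subunit per length, was lower in every DDK liver (129, 126 and 145) than in any vehicle liver (148, 170.0 and 149), as for 39.2% of all tested genes. Uqcrc2 did not pass the test (-0.22 ± 0.13, adjusted p = 0.178, and 0.0192 on the TPM scale). After length correction the calls in complex III were Uqcrc1, Uqcrfs1, Uqcrb and Uqcrq, all higher, while Uqcrh stood at -0.02 (adjusted p = 0.881), Uqcr10 at 0.08 and Uqcr11 at 0.20. The call of Uqcrh was also lost without DDK liver 1, DDK liver 2, vehicle liver 2 or vehicle liver 3 (adjusted p 0.0546 to 0.0738), and that of Uqcrfs1 without DDK liver 1, DDK liver 2 or vehicle liver 3 (0.0587 to 0.0747). Quantile normalization ended the calls of Uqcrh (0.202), Uqcr10 (0.0657) and Uqcrfs1 (0.102), and the TPM scale that of Uqcrfs1 (0.136).

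Cycs, the cytochrome c gene of somatic tissues, was the member closest to no difference among the subunits. It stood at 28.7, 28.8 and 37.2 in DDK and 31.6, 35.4 and 27.8 in vehicle livers, and the groups overlapped (log2 fold change -0.01 ± 0.15 SE, adjusted p = 0.976). Its testis form, Cyct, was listed at 0 in all 6 libraries. Per length, Cycs was the least abundant of all 36 subunits.

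In complex IV, 8 of 11 members of the subunit list rose and none fell, with a median log2 fold change of 0.61 (0.84 relative to all genes). Their median gene length was 569 bp, and all tested genes under 600 bp had a median log2 fold change of 0.68. After length correction the complex IV median relative to all genes was 0.16. Cox6c (chromosome 15, 35925886 to 35938246), an accessory subunit and the most abundant of the complex per length, stood at 1376, 1496 and 1233 FPKM in DDK and 787, 587 and 549.9 in vehicle livers. Every DDK liver was well above every vehicle liver, although vehicle liver 1 again led its group (1.11 ± 0.17, adjusted p = 0.00185). Cox5b, a zinc-binding subunit on the matrix side, had 800.2, 882 and 687 in DDK and 479, 344 and 361 in vehicle livers (1.01 ± 0.17, adjusted p = 0.00244). The small membrane subunit genes Cox7c and Cox7b followed. Cox7c stood at 1037, 1133 and 943 in DDK and 703, 532 and 455 in vehicle livers (0.90, adjusted p = 0.00472). Cox7b, on the X chromosome, stood at 441, 503 and 426 in DDK and 294, 237 and 212 in vehicle livers (0.89, adjusted p = 0.00285). Cox6b1, which faces the intermembrane space, stood at 814, 876 and 740.5 in DDK and 571, 468 and 445 in vehicle livers (0.72, adjusted p = 0.0057). In none of these 5 genes did the groups overlap, again beside 14.1% of all tested genes in the higher direction.

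**Figure D3:**
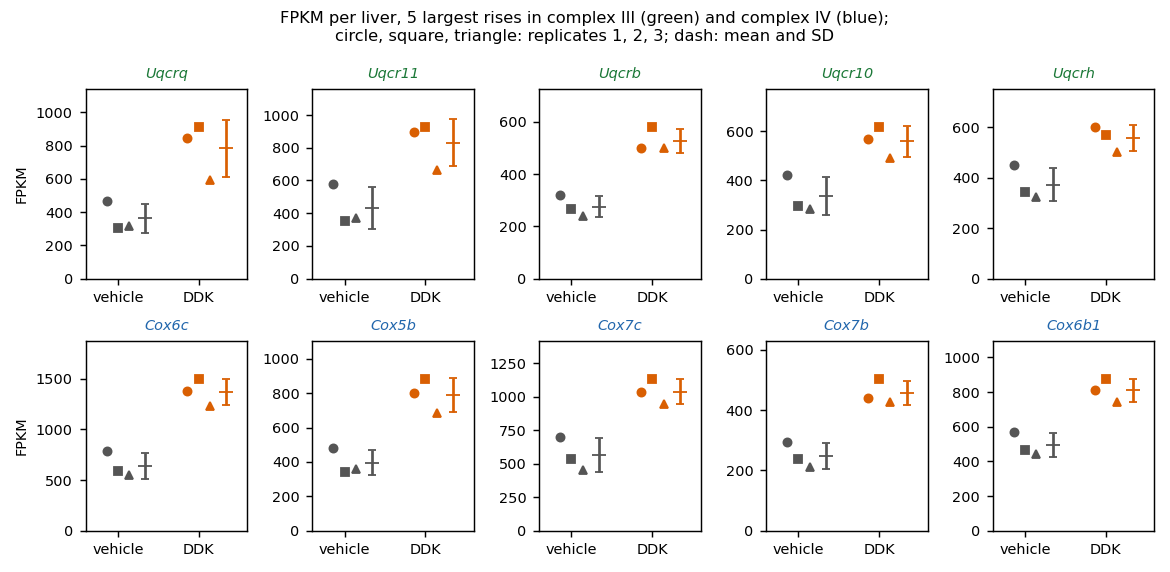
FPKM (y axis, from 0) in each of the 3 vehicle and 3 DDK livers (x axis) for the 5 subunits of complex III and the 5 of complex IV with the largest rises, with markers for replicates 1, 2 and 3 and the mean with SD beside them. In all 10 genes the lowest DDK liver lies above the highest vehicle liver, which is vehicle liver 1. Of all tested genes 14.1% had every DDK liver above every vehicle liver.

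The other complex IV rises were smaller: Cox6a1 (0.61), the isoform found outside muscle, Cox7a2 (0.56) and Cox4i1 (0.55), the general form of the regulatory subunit. Cox8a (0.42, adjusted p = 0.0598) and Cox5a (0.14, adjusted p = 0.397) did not pass. Cox5a, the least abundant subunit of the complex, overlapped between DDK (83.4, 83.6 and 81.0) and vehicle livers (87.5, 69.0 and 69.1). Cox7a2l, which joins complexes III and IV in supercomplexes, stood apart in direction, with 91.5, 72.2 and 80.6 in DDK and 103, 101 and 107 in vehicle livers (-0.35 ± 0.13, adjusted p = 0.0515). Within each library the ratio of Cox7a2 to Cox7a2l, which library scaling cannot change, was 4.13 to 5.14 in DDK and 1.99 to 2.88 in vehicle livers. A shift that depends on gene length (754 and 1149 bp here) does not cancel in such a ratio, here or for the pairs below. After length correction Cox5b (0.42), Cox6c (0.44) and Cox7b (0.67) were called higher and Cox7a2l lower (-0.48, adjusted p = 0.014, and 0.00616 on the TPM scale). The calls of Cox4i1, Cox6a1 and Cox7a2 each ended without DDK liver 1, DDK liver 2, vehicle liver 2 or vehicle liver 3 (adjusted p 0.0558 to 0.113 over the 3 genes). They also ended under quantile normalization (0.105 to 0.383), on the TPM scale (0.0564 to 0.0671) and after length correction, and those of Cox4i1 and Cox6a1 ended without a filter on low values (0.0556 and 0.0815). Cox6b1 (0.01) and Cox7c (0.16) lost their calls after length correction.

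In ATP synthase the subunits split, with 11 of 15 higher and 2 lower. The 2 that fell are the large catalytic and regulatory subunits of the F1 head. Atp5b (chromosome 10, 128083273 to 128090391), the beta subunit that carries the catalytic sites, stood at 502, 480.1 and 525 in DDK and 690.1, 789 and 790.1 in vehicle livers (-0.59 ± 0.13, adjusted p = 0.00772). Atp5a1, the alpha subunit, stood at 401, 388 and 426 in DDK and 497, 560.2 and 545 in vehicle livers (-0.40 ± 0.13, adjusted p = 0.0315). For both genes every DDK liver was below every vehicle liver, as for 39.2% of all tested genes. Both stayed below 0 under each scaling, but the calls were lost after median-ratio scaling, where Atp5b stood at -0.28 (adjusted p = 0.2) and Atp5a1 at -0.09 (0.687). Atp5a1 also lost its call after length correction (-0.18, adjusted p = 0.177) and without DDK liver 1, DDK liver 2, vehicle liver 2 or vehicle liver 3 (0.102 to 0.125).

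The small subunits of the F1 stalk went the other way. Atp5e, the epsilon subunit, stood at 1408, 1390.3 and 909 in DDK and 731, 469.9 and 479.8 in vehicle livers (1.14 ± 0.23, adjusted p = 0.00468). DDK liver 3 was clearly the lowest of its group there, and still above vehicle liver 1. After length correction this short gene stood at 0.35 and was no longer called (adjusted p = 0.0669). The gamma subunit gene Atp5c1, the rotating shaft, rose by 0.49 and the delta subunit gene Atp5d by 0.65. The within-library ratio of Atp5c1 to Atp5b was 0.461 to 0.559 in DDK and 0.218 to 0.273 in vehicle livers, a difference of 1.08 on the log2 scale. That of Atp5d to Atp5a1 was 0.626 to 0.828 in DDK and 0.291 to 0.486 in vehicle livers. Atp5d lost its call without DDK liver 1, DDK liver 2, vehicle liver 2 or vehicle liver 3 (adjusted p 0.0519 to 0.0588), and Atp5c1 without DDK liver 2 or vehicle liver 3 (0.0542 to 0.0597) and on the TPM scale (0.0857).

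In the peripheral stalk, which holds the F1 head still, 3 of 4 subunits rose. Atp5h, subunit d, stood at 648, 692 and 565 in DDK and 383, 272 and 274 in vehicle livers (1.05 ± 0.17, adjusted p = 0.00205). Atp5o, the oligomycin sensitivity-conferring protein that caps the stalk, stood at 464, 469.9 and 429 in DDK and 287, 231 and 231 in vehicle livers (0.87 ± 0.14, adjusted p = 0.00197). Atp5j, the coupling factor F6, rose by 0.83, from 165 ± 28.5 to 292 ± 28.0 (SD, n = 3 per group, limma adjusted p = 0.00355). The fourth, Atp5pb, subunit b, was lower in every DDK liver (232, 224 and 294) than in any vehicle liver (312, 346 and 299), as for 39.2% of all tested genes. Atp5pb did not pass the main test (-0.36 ± 0.14, adjusted p = 0.0714). It passed, as lower, after quantile normalization (adjusted p = 0.0172), rescaling to TPM (0.00998) and length correction (0.0492). The within-library ratio of Atp5o to Atp5b was 0.817 to 0.979 in DDK and 0.292 to 0.416 in vehicle livers.

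**Figure D4:**
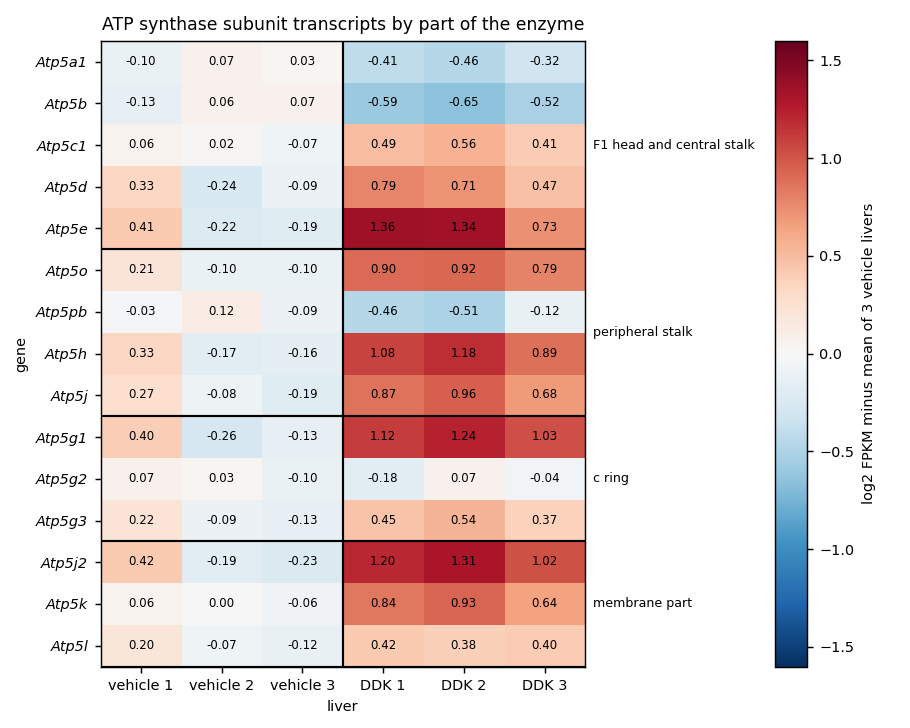
Log2 FPKM of the 15 ATP synthase subunits (y axis, grouped by part of the enzyme) in each liver (x axis), as the difference from the mean of the 3 vehicle livers, with red higher and blue lower. Atp5a1, Atp5b and Atp5pb are blue in all 3 DDK livers, and the subunits called higher are red there; after median-ratio scaling these 3 genes stood at -0.09, -0.28 and -0.05 and were not called.

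Atp5g1, Atp5g2 and Atp5g3 encode the same mature subunit c of the membrane ring behind different import sequences, and their transcripts did not move alike. Atp5g1 (chromosome 11, 96068852 to 96075670) stood at 276, 299.8 and 259.7 in DDK and 168, 106 and 116 in vehicle livers (1.12 ± 0.17, adjusted p = 0.00195). Atp5g2 (chromosome 15, 102662864 to 102672352), the least abundant ATP synthase transcript per length, stood at 128, 152 and 141 in DDK and 152, 148 and 135 in vehicle livers, where the groups overlapped (-0.05 ± 0.13, adjusted p = 0.767). Atp5g3 (chromosome 2, 73908447 to 73911326), the main form, stood at 910.3, 967 and 858 in DDK and 774, 625 and 610.3 in vehicle livers (0.45 ± 0.15, adjusted p = 0.0337). Of the summed FPKM of the 3 genes, Atp5g1 made 20.6% to 21.1% in DDK and 12.1% to 15.3% in vehicle livers, and Atp5g2 made 9.71% to 11.2% against 13.9% to 16.8%. Atp5g3 made 68.1% to 69.3% against 70.8% to 71.1%. The ratio of Atp5g1 to Atp5g2 was 1.85 to 2.16 in DDK and 0.718 to 1.10 in vehicle livers. Atp5g1 kept its call under all 17 alternatives, while Atp5g3 lost its own without DDK liver 1, DDK liver 2, vehicle liver 2 or vehicle liver 3 (adjusted p 0.0964 to 0.131). The call of Atp5g3 also ended without a filter (0.0636), under quantile normalization (0.403), on the TPM scale (0.158) and after length correction (0.19, 0.168). Atp5g2 was called lower after length correction (-0.55, adjusted p = 0.013).

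The small membrane subunits of ATP synthase all rose. Atp5j2, subunit f (chromosome 5, 145183698 to 145192062), the most abundant ATP synthase transcript per length, stood at 1311, 1414 and 1159 in DDK and 761, 501 and 487 in vehicle livers (1.18 ± 0.19, adjusted p = 0.00215). It had the largest log2 fold change of the 36 subunits. The subunit e gene Atp5k rose by 0.80 and the subunit g gene Atp5l by 0.40, and these subunits hold pairs of the enzyme together. After length correction Atp5k stood at -0.15 (adjusted p = 0.402) and Atp5l at -0.0027 (0.986), while Atp5j2 kept its call (0.41, 0.0194). Atp5l also lost its call without any library except vehicle liver 1 (adjusted p 0.0685 to 0.14), without a filter (0.0503), under quantile normalization (0.0982) and on the TPM scale (0.263).

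The assembly factors gave 2 rises and 3 falls among 14 tested genes, with at least 29 fragments behind each value. Cox17 (chromosome 16, 38346991 to 38352763), the chaperone that brings copper to complex IV, stood at 107, 114 and 86.0 in DDK and 58.4, 41.2 and 45.1 in vehicle livers (1.07 ± 0.16, adjusted p = 0.00184). Uqcc2 (chromosome 17, 27122663 to 27133916), which helps cytochrome b into complex III, stood at 91.8, 96.8 and 74.4 in DDK and 53.1, 40.2 and 42.5 in vehicle livers (0.94 ± 0.15, adjusted p = 0.00221). Both genes are short, 831 and 757 bp, and both kept their calls after length correction (0.73 and 0.54).

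Among the assembly factors that fell, Atpaf1 (chromosome 4, 115784812 to 115818828), which chaperones the F1 beta subunit, changed most of all 50 members. It stood at 0.957, 0.567 and 0.653 in DDK and 2.17, 4.56 and 4.54 in vehicle livers, with vehicle liver 1 between the DDK livers and the other vehicle livers (-1.42 ± 0.22, adjusted p = 0.00187). At this low level the added 1 matters: voom on the fragment counts gave a log2 fold change of -2.30 (adjusted p = 0.00555). Cox15 (chromosome 19, 43733254 to 43753000), which makes haem A for complex IV, stood at 2.91, 3.07 and 2.88 in DDK and 4.79, 7.20 and 7.76 in vehicle livers (-0.92 ± 0.17, adjusted p = 0.00399). Ttc19, which keeps newly built complex III clear of Rieske protein fragments, stood at 2.63, 2.50 and 2.66 in DDK and 3.56, 4.33 and 4.07 in vehicle livers (-0.47 ± 0.14, adjusted p = 0.0218). The calls of Atpaf1 and Cox15 held under all 17 alternatives. That of Ttc19 was lost after median-ratio scaling (-0.23, adjusted p = 0.147), quantile normalization and length correction (-0.18), and without DDK liver 1, DDK liver 2, vehicle liver 2 or vehicle liver 3 (0.0673 to 0.0844).

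The other 9 tested assembly factors did not pass, although Atpaf2 and Cox18 did on the TPM scale as lower (adjusted p 0.0393 and 0.0463) and Cox19 did as higher without vehicle liver 1 (0.00803). Their log2 fold changes ran from -0.27 for Cox18, which inserts a core subunit of complex IV into the membrane, to 0.25 for Cox19, a copper handling protein. Cox10, the enzyme before Cox15 in haem A synthesis, stood at 4.23, 2.96 and 3.09 in DDK and 3.48, 3.70 and 3.56 in vehicle livers (-0.06 ± 0.15, adjusted p = 0.772). Atpaf2, which chaperones the F1 alpha subunit, stood at 4.22, 4.44 and 3.94 in DDK and 4.75, 5.31 and 5.32 in vehicle livers (-0.24 ± 0.13, adjusted p = 0.173). The within-library ratio of Cox17 to Cox15 was 29.8 to 37.1 in DDK and 5.72 to 12.2 in vehicle livers. The ratio of Atpaf2 to Atpaf1 was 4.40 to 7.83 in DDK and 1.16 to 2.19 in vehicle livers, and that of Uqcc2 to Ttc19 was 27.9 to 38.7 and 9.29 to 14.9. Sco1, Surf1, Cox11, Bcs1l and Uqcc1, which serve copper delivery, haem A insertion, copper insertion, Rieske protein insertion and cytochrome b, overlapped between the groups.

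**Figure D5:**
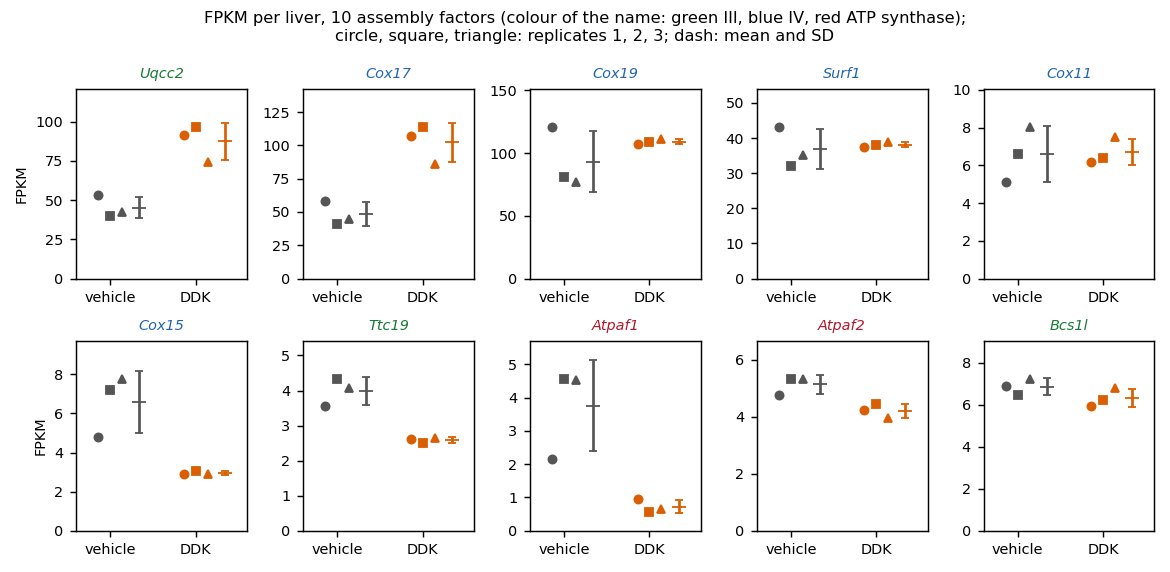
FPKM (y axis, from 0) in each vehicle and DDK liver (x axis) for 10 assembly factors, with markers for replicates 1, 2 and 3 and the mean with SD beside them. Cox17 and Uqcc2 lie higher and Cox15, Ttc19, Atpaf1 and Atpaf2 lower in every DDK liver than in any vehicle liver, Atpaf2 without passing the test and Ttc19 without a call after median-ratio scaling. Of all tested genes 14.1% lay higher and 39.2% lower in this way.

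Over 12 such within-library ratios, chosen after the values were seen, 11 did not overlap between the groups. Most of them set a gene that rose over one that fell or did not pass, so this count largely followed from the choice. Among single genes 14.1% did not overlap as higher and 39.2% as lower, and the share over other gene pairs was not computed. Each of the 11 ratios without overlap gave an exact two-sided permutation p of 0.10, the smallest that 3 against 3 livers allow (0.109 adjusted over the 12). The ratio of Uqcrq to Uqcrc2 was among these 11 (4.08 to 7.25 in DDK and 1.79 to 3.13 in vehicle livers), and the exception was Cyc1 over Cycs (exact permutation p = 0.30).

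A further list of 43 subunits, isoforms and assembly or inhibitory factors of the same complexes had 41 entries in the table. Of the 36 tested, 15 rose and 2 fell, beside 10.2% and 30.3% of all tested genes. The median log2 fold change of the list was 0.38. The rises included Uqcc3 (1.26), an assembly factor of complex III, Cox20 (1.01) and Cmc1 (1.02), which attend early complex IV assembly, and the ATP synthase inhibitor gene Atpif1 (0.78, from 14.4, 10.5 and 12.4 in vehicle to 24.3, 20.7 and 21.3 in DDK livers). The small ATP synthase membrane proteins Atp5md (0.81) and Atp5mpl (0.84) and the complex IV protein Ndufa4 (0.60) rose as well. After length correction the list held 14 higher and 5 lower genes, beside 1722 and 1844 of 10681 tested genes. Atp5md (-0.06, adjusted p = 0.698) and Ndufa4 (-0.07, 0.625) lost their calls and changed sign under this correction. The 2 that fell were Taco1 (-1.52 ± 0.30, adjusted p = 0.00472), an activator of mitochondrial translation of a complex IV subunit, and Hccs (-1.01, adjusted p = 0.0133), the enzyme that attaches haem to cytochrome c. Taco1 stood at 2.61, 2.48 and 3.15 in DDK and 4.99, 13.2 and 13.5 in vehicle livers, and vehicle liver 1 lay nearer to the DDK livers than to its own group. Cox7b2, Cox8c, Pet117 and Cyct were listed at 0 in every library, and the muscle forms Cox6a2, Cox7a1 and Cox8b stayed at an FPKM of 5.75 or less.

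The subunits of complex I, for comparison, were also mostly higher: 29 of 36 rose and 1 fell, beside 10.2% and 30.3% of all tested genes. The median log2 fold change of the complex I subunits was 0.73. After length correction 20 were called higher and 2 lower, with a median of 0.44, beside 0.23 for the subunits described here. The 1 that fell was Ndufs1 (-1.01 ± 0.21, adjusted p = 0.00618), the largest iron-sulfur subunit. Its assembly factors were mixed, with 3 higher and 3 lower of 15 (median 0.14), and no difference between complex I and the complexes described here was tested. Of 18 general mitochondrial genes (citrate synthase, porins, import and cristae proteins), 3 rose and 7 fell, with a median of -0.19. Among them citrate synthase, Cs, fell by 0.75 on the log2 scale, and the import receptor gene Tomm20 and the import channel gene Timm23 stood at -0.95 and -1.71, both past the threshold. The 3 that rose were import genes too: Tomm22 (0.56), Tomm40 (0.52) and Timm44 (0.47). The list median lay near that of all tested genes (-0.23), and after length correction 4 of the 18 were called higher and 4 lower.

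Among 15 regulators of nuclear-encoded respiratory genes, 1 rose and 2 fell, beside 10.2% and 30.3% of all tested genes. Esrra, an orphan nuclear receptor, stood at 29.9 to 30.3 in DDK and 21.7, 18.6 and 23.6 in vehicle livers (0.48 ± 0.13, adjusted p = 0.0156). Gabpa stood at 4.00, 3.22 and 4.33 in DDK and 4.65, 8.23 and 9.66 in vehicle livers, with vehicle liver 1 close to the DDK livers, and Sp1 fell too (-0.60, adjusted p = 0.0305). Nrf1 (-0.08, adjusted p = 0.602), the coactivator gene Ppargc1a (0.17, adjusted p = 0.223) and the mitochondrial transcription factor gene Tfam (-0.33, adjusted p = 0.186) did not pass. After length correction 4 of the 15 regulators were called higher and none lower, beside 1722 and 1844 of 10681 tested genes. The 4 were Esrra (0.68, adjusted p = 0.00404), Ppargc1a (0.41, 0.0218), Ppargc1b (0.37, 0.0356) and Polrmt (0.43, 0.0253). Gabpa (-0.45, adjusted p = 0.0748) and Sp1 (-0.30, 0.118) lost their calls under this correction.

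Vehicle liver 1 was the highest vehicle liver for 30 of the 36 subunits and lay toward the DDK livers for 34 of them. Its median log2 distance from the mean of the other vehicle livers was 0.37 over the subunits and -0.11 over the assembly factors. Relative to the vehicle mean of each gene, the median subunit stood at 0.66, 0.66 and 0.46 in DDK livers 1 to 3 and at 0.24, -0.08 and -0.13 in vehicle livers 1 to 3. Leaving out each library in turn, 17 of the 27 called subunits and 4 of the 5 called assembly factors kept their calls every time.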

How the data were processed

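RNA-seq was made from liver RNA of 6 mice with a NEBNext Ultra RNA kit, per the labels' protocols. The values are the FPKM table the authors deposited; its build is GRCm38 (mm10), per the submitters' processing notes, and the aligner and counter are not given in the sources used here. How fragments matching pseudogenes or overlapping genes were divided is unknown: exons of 16 members overlap a gene on the opposite strand and those of 4 a gene on the same strand (GENCODE M21). Gene lengths, fragments and totals were recovered from the FPKM values (whole within 0.01 fragment in all libraries for 100% of 16572 genes). Genes reaching an FPKM of 0.5 in 3 or more libraries were tested by limma 3.58.1 (R 4.3.3) on log2(FPKM + 1), which understates changes of low genes, with a variance trend and Benjamini-Hochberg adjustment over 10681 genes (threshold 0.05). No test compared a list with other genes. Members, lists and tests were chosen with earlier results of these data known. Named genes were the 5 largest rises and 3 largest falls past the threshold per complex and among assembly factors, subunit c genes, Cyc1, Cycs, and the most and least abundant subunits; others were named after their values were seen. Length correction subtracted a lowess curve (span 0.3) on log2 length from each library. Replicate numbers were not used to pair the libraries in the main test. The test was also run on simulated data without a shift by gene length or an outlying vehicle liver, so that run does not bear on either.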

Additional observations from a re-analysis of the deposited data

How the results depend on the processing

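The pseudocounts 0.1 and 0.5, the filter at an FPKM of 1, the fit without a variance trend, voom on recovered fragments and the replicate block changed no call among the 50 tested members, and without a filter 4 calls were lost. With the replicate number as a block, 25 subunits were called higher and 2 lower and 1052 genes of the table higher. Same-numbered libraries correlated at 0.141, -0.146 and 0.0558 in their deviations from group means, and their titles share only a number. With 3 libraries per group, these values cannot settle whether same-numbered libraries shared a batch. After median-ratio scaling 1963 genes were called higher and 1650 lower, 0 subunits lower, and medians were 0.91 for subunits and 0.17 for assembly factors. Quantile normalization gave 1886 and 1743 genes, with medians of 0.31 and 0.20. TPM gave 631 and 4929 genes, 5 subunits and 5 assembly factors lower, with medians of 0.37 and -0.30. Length correction gave 1722 and 1844 genes, 14 subunits higher and 4 lower, with medians of 0.23 for subunits and 0.04 for assembly factors. Under it 4 called subunits changed sign, Uqcrh (-0.02), Cox6a1 (-0.01), Atp5k (-0.15) and Atp5l (-0.0027). Leaving out 1 library at a time gave 599 to 1351 genes called higher and 1711 to 4127 lower, 16 to 27 subunits higher and 1 to 3 lower, and subunit medians of 0.51 to 0.77; assembly factors called higher numbered 2 to 3 and lower 2 to 3, with medians of -0.10 to -0.04. In the median of all genes, the deposited scaling lay at -0.23, median-ratio and quantile scaling at 0.00 and TPM at -0.45. Among these fits with 1 library left out, both highest counts over all genes came without vehicle replicate 1, and the lowest without DDK replicate 2 (higher) and vehicle replicate 3 (lower); the cause of these shifts was not tested. Each subunit had at least 2205 fragments in every library and each tested assembly factor at least 29, so counting error weighs more on the latter.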
